A study of Mus musculus with 6 samples.

Results

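The 37 genes described here encode the kinetochore, the centromere chromatin beneath it, the spindle checkpoint and the chromosomal passenger complex. They were chosen by name: a gene was taken when a transcript cluster of the array (the probes that stand for 1 transcript unit) carried its symbol and no other, and the brightest cluster by the mean of the 6 arrays was used. All 37 were found, each on 1 cluster, among 19919 genes named in this way, and all 37 lay above the filter on dim genes that left 15452 genes for testing. By role, 12 belong to the inner centromere, 14 to the outer kinetochore, 7 to the checkpoint and 4 to the passenger complex.

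RNA came from 6 cultures of proliferating mouse embryonic fibroblasts (MEFs), mixed connective tissue cells grown from E13.5 embryos to passage 4, with 1 array per culture. Of these, 3 cultures were Rb1+/+ (wild type) and 3 were Rb1L/L, in which both copies of Rb1 carry the L allele; this allele is known to alter the pRb pocket surface that docks LXCXE-containing partners. Neither genotype received a treatment, and no mouse strain was named. The series concerns condensin II and divergently paired genes, and the arrays compare expression between the 2 genotypes.

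A kinetochore is the protein assembly that forms on each centromere in mitosis and couples the chromosome to spindle microtubules. Its base is chromatin that carries the histone variant CENP-A and the constitutive CENP network, on which the microtubule-binding outer layer is built; kinetochores without microtubules signal through the spindle checkpoint, which restrains the anaphase-promoting complex (APC/C), and Aurora B of the passenger complex loosens wrong attachments. Most of these genes are transcribed late in the cell cycle, under repressors and activators that act through CHR elements, CCAAT boxes and E2F sites in their promoters. pRb binds E2F factors and holds back genes needed for division.

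The fibroblast identity was checked on 10 marker genes, all above the filter, whose summed linear signal was 44954 to 46474 in Rb1+/+ and 41160 to 42491 in Rb1L/L cultures; 1 of the 10, Col3a1, fell. Pecam1 of 5 endothelial and Epcam of 5 epithelial markers lay below the filter. Of the 4 endothelial markers above it, Kdr rose (0.58, adjusted p = 0.00662), and the endothelial sums of 458 to 730 in Rb1+/+ and 516 to 674 in Rb1L/L cultures overlapped, as did the epithelial sums of 578 to 675 and 605 to 687. All 10 macrophage markers were above it, and their sum of 1177 to 1723 in Rb1+/+ against 1508 to 1969 in Rb1L/L cultures overlapped between genotypes; 3 of the 10 rose and 1 fell. The 5 neural markers summed to 1744 to 2204 and 1506 to 1749, and 2 of them fell; the part of these markers in the results was not tested. Each genotype held 1 culture with a male pattern, in both cases number 1: Xist measured log2 5.13 and 4.79 there and 11.44 or more in the other 4 cultures. Arrays correlated at 0.9948 to 0.996 within and 0.9873 to 0.9927 between genotypes.

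Promoter sequences are shown first, because they show the motifs through which such genes are thought to be co-regulated. RefSeq windows (build GRCm38.p6, 250 bases before to 50 after an annotated start) were at hand for 31 of the 37 members; Spc24, Nsl1, Zwilch, Ska1, Aurkb and Incenp had no window. The printed windows belong, in each role group, to the member with the smallest and the member with the largest p for genotype among those with a window (the rule named a pair per group, and Incenp and Aurkb of the passenger complex had none). Capitals mark matches on either strand to a CHR element, a CCAAT box or an E2F site, and each sequence runs 5′ to 3′ along the gene's strand. The CHR element was searched as TTTGAA. A known variant form of this element was searched in the same windows as TTCGAA. The CCAAT box was searched by the letters of its name. For the E2F site, 4 forms were searched, namely TTTCCCGC and TTTGGCGC and also TTTCGCGC and TTTGCCGC.

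For the inner centromere, Cenph (chr13:100775850-100776149, minus strand) had the smallest p, with 1 CCAAT box after the start, and Cenpk (chr13:104228361-104228660, plus strand, the first of 3 windows) the largest.
Cenph: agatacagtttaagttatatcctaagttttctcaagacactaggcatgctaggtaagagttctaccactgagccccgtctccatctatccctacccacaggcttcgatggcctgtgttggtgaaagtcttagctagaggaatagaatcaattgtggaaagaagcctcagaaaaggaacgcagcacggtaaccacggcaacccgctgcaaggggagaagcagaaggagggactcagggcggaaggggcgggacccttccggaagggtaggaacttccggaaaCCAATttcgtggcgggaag
Cenpk: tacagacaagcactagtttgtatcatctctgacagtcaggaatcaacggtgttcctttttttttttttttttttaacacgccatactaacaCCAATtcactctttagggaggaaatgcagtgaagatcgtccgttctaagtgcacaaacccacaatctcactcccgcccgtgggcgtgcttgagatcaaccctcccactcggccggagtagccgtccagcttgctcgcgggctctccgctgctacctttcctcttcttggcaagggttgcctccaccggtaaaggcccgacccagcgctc

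In the outer kinetochore group, Ska2 (chr11:87109011-87109310, plus strand) holds 5 CCAAT boxes and had the smallest p, whereas Cenpe (chr3:135212313-135212612, plus strand) holds 1 and had the largest.
Ska2: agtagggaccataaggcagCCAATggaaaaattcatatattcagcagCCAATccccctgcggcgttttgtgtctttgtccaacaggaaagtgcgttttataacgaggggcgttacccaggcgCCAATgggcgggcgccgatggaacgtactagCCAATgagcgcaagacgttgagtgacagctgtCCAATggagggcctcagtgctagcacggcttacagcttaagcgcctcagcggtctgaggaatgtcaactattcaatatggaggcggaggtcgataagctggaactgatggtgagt
Cenpe: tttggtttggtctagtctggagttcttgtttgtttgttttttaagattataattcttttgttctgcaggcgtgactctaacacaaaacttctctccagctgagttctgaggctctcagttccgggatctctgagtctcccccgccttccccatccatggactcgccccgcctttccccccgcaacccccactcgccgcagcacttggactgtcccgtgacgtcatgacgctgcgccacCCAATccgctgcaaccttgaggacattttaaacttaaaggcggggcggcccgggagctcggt

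Of the checkpoint genes, Bub3 (chr7:131560120-131560419, plus strand, the first of 2 windows) carries a CHR element between 2 CCAAT boxes, and Mad2l1 (chr6:66534971-66535270, plus strand) has no match to any of the motifs.
Bub3: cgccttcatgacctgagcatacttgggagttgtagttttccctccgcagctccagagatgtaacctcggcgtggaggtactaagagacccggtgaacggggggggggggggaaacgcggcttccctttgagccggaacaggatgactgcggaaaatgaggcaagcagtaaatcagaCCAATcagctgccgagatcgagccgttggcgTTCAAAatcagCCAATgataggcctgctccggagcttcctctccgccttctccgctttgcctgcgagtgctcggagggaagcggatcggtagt
Mad2l1: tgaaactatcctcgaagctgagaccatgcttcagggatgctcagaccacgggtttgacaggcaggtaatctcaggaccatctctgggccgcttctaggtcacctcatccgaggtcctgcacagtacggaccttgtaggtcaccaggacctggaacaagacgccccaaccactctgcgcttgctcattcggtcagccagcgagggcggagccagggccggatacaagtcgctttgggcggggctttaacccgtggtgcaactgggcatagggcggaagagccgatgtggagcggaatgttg

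For the passenger complex, Birc5 (chr11:117848987-117849286, plus strand) shows no match, and Cdca8 (chr4:124936868-124937167, minus strand) holds a CHR element 13 bases after the start and 4 CCAAT boxes, the last of which overlaps the CHR element.
Birc5: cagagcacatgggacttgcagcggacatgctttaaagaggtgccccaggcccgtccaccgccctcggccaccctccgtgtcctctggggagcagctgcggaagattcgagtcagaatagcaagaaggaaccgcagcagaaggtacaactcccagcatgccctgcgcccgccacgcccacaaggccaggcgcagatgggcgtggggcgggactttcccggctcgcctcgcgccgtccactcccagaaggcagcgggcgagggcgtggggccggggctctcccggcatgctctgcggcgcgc
Cdca8: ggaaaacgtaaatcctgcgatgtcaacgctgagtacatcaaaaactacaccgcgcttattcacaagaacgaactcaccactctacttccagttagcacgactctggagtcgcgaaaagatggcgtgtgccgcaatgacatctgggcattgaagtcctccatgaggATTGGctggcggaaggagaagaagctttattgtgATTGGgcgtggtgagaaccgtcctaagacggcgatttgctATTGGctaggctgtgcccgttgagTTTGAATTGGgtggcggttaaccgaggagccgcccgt

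Cenpa (chr5:30666766-30666935, plus strand) and Cdc20 (chr4:118437294-118437463, minus strand), picked after their values were seen, are shown from 120 bases before the start for a CHR element close to it.
Cenpa: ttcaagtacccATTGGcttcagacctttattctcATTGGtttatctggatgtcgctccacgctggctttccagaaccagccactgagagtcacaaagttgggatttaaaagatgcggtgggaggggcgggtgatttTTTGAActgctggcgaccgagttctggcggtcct
Cdc20: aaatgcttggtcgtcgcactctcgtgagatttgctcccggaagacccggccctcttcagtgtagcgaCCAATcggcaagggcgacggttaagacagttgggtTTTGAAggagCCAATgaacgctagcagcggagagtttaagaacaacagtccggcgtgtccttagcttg

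A CHR element was found in 14 of 31 members (45.2%), against 19.4% of 27025 promoter windows of all genes (1 per gene) and 13.8% of the 12185 windows of tested genes. In 12 members (38.7%) it lay within 50 bases of the start, which was so in 5.29% of all windows and 3.5% of those of tested genes. CCAAT boxes were present in 20 members (64.5%; all windows, 37.9%; tested genes, 37.6%) and E2F sites in 4 (12.9%; all windows, 2.32%; tested genes, 3.67%), namely Cenpb, Cenpl, Cenpm and Dsn1. Members that did and did not change with genotype, as given next, were also compared. CCAAT boxes were in 8 of 14 and 12 of 17, CHR elements in 8 of 14 and 6 of 17, and E2F sites in 1 of 14 and 3 of 17. These differences were not tested. A match describes letters only, and the motifs were picked because genes of this kind are known for them.

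**Figure D1:**
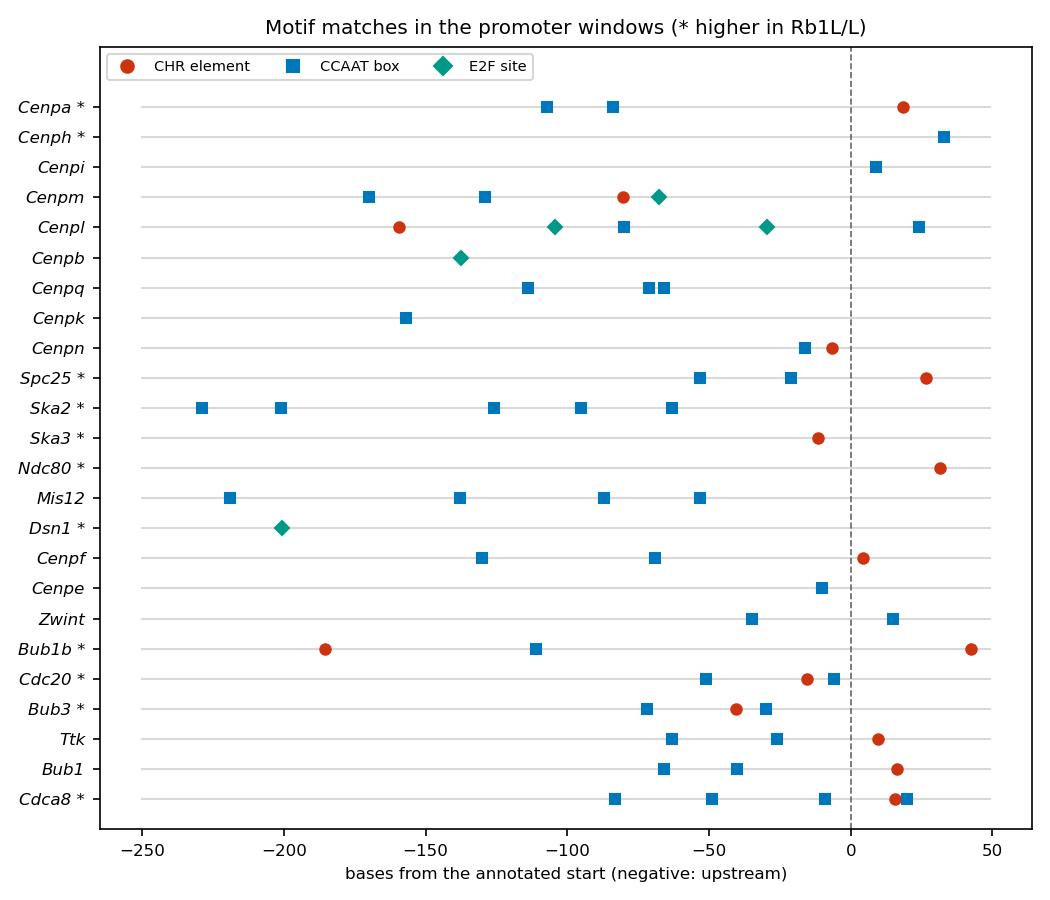
Motif matches in the 24 member promoter windows that hold at least 1, by distance in bases from the annotated start (horizontal axis; the dashed line is the start). Circles are CHR elements, squares CCAAT boxes and diamonds E2F sites, and an asterisk marks genes higher in Rb1L/L; 12 of the 14 members with a CHR element have it within 50 bases of the start.

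The comparison of genotypes asked which of these genes differ between Rb1L/L and Rb1+/+ cultures. Of the 37, 16 rose in Rb1L/L cultures and none fell (limma, adjusted p under 0.05 over all 15452 tested genes), where 7.11% of all tested genes rose, 5.07% fell and 12.2% changed either way. At an unadjusted p under 0.05, 24 were higher and 1, Zwint, was lower, beside 2225 higher and 2216 lower among the 15452 tested genes. The log2 fold change was positive for 36 and negative for Zwint, and ran from -0.13 to 0.77 with a median of 0.273, beside a median of -0.021 over all tested genes. The lowest Rb1L/L value exceeded the highest Rb1+/+ value for 22 members, which held for 16.2% of tested genes. All changes were below 2-fold, the largest being 1.71-fold for Cenpa. More cells in mitosis and more RNA per cell cannot be told apart in such bulk samples.

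**Figure D2:**
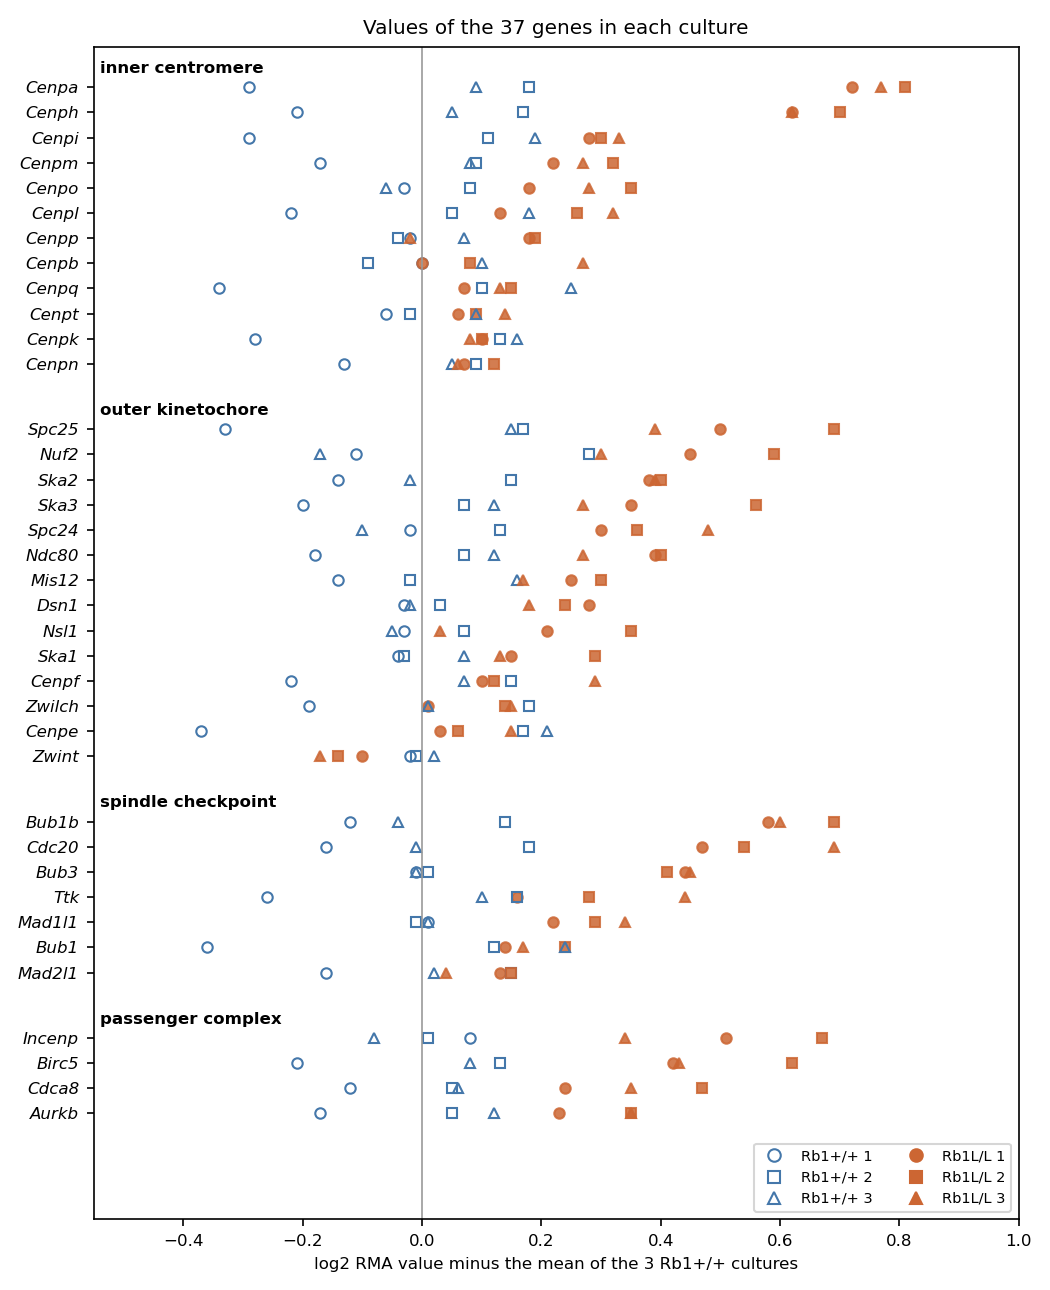
Each row is 1 gene and each symbol 1 culture; the horizontal axis is the log2 value minus the mean of the 3 Rb1+/+ cultures. Open blue symbols are Rb1+/+ and filled orange symbols Rb1L/L cultures, with the shape giving the culture number; for 28 of 37 genes the lowest value is that of Rb1+/+ culture 1.

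The Rb1+/+ cultures were not alike. Culture 1 had the lowest value of all 6 for 28 members (75.7%, against 17.8% of tested genes), and its median deviation from the Rb1+/+ mean over the 37 was -0.17, beside 0.09 and 0.07 in cultures 2 and 3. In Rb1L/L cultures 1, 2 and 3 the median deviation from that same mean was 0.23, 0.30 and 0.29. Rb1+/+ culture 1 was also the lowest for all 7 proliferation markers on the array (Mki67, Top2a, Pcna, Ccna2, Cdk1, Foxm1 and Mybl2). Their summed linear signal, in which bright genes weigh most, was 10493 to 12168 in Rb1+/+ and 12808 to 13254 in Rb1L/L cultures. Cdk1 was the 1 of the 7 that rose (0.41, adjusted p = 0.0112). Mki67, Pcna and Ccna2 overlapped between genotypes, with log2 fold changes of 0.12, 0.01 and -0.01, and Foxm1 had 0.21 (adjusted p = 0.147). With the replicate number as a block 3 of the 7 rose, with Top2a (0.37, adjusted p = 0.0258) and Mybl2 (0.26, adjusted p = 0.0293) beside Cdk1, and the part of these markers in the result was not tested. Without Rb1+/+ culture 1, 8 members rose (all tested genes, 3.5%) and the median log2 fold change was 0.188. With any other single array left out, 6 to 14 rose: 14 and 10 without Rb1+/+ cultures 2 and 3, and 8, 6 and 9 without Rb1L/L cultures 1, 2 and 3. In the same order, 5.5%, 4.06%, 2.74%, 2.82% and 4.7% of all tested genes rose in these fits.

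Same-numbered cultures were taken as pairs, because their deviations from the group means were positively correlated. What the cultures of a pair share is not stated. Within pairs 1, 2 and 3 the median log2 difference over the 37 members was 0.39, 0.25 and 0.19, and 28 members (75.7%) were higher in the Rb1L/L culture of all 3 pairs, as were 23.0% of tested genes. Pair 1, the cultures of male pattern, thus had the widest difference, and pairs 2 and 3, of female pattern, went the same way. With the replicate number as a block, 20 members rose (all tested genes, 7.99%) and the 16 were among them; the further 4 were Cenpm, Nuf2, Ttk and Aurkb.

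**Figure D3:**
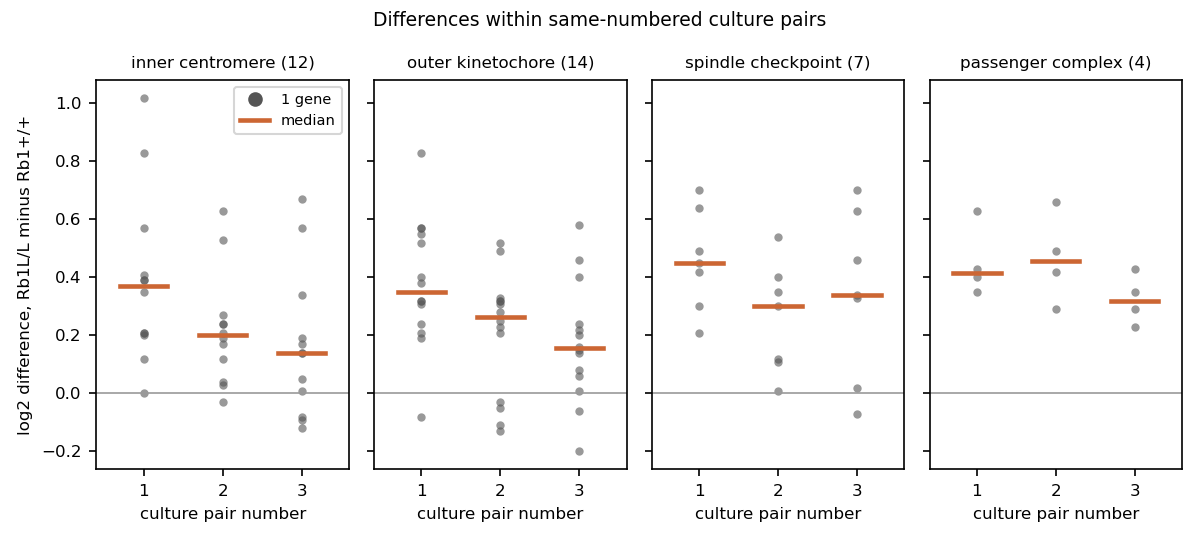
Log2 difference between the Rb1L/L and the Rb1+/+ culture of each number (vertical axis) for pairs 1 to 3 (horizontal axis), 1 panel per role group with the number of genes in brackets. Points are genes and orange bars medians; all medians are above 0, with 0.37, 0.20 and 0.14 for the inner centromere and 0.41, 0.45 and 0.32 for the passenger complex.

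At the inner centromere, 3 of 12 genes rose (all tested genes, 7.11%) and none fell, with a median log2 fold change of 0.174. All 12 fold changes were positive, as were 6741 of the 15452 tested genes. Cenpa encodes the centromeric histone H3 variant that marks where a kinetochore forms. It measured log2 8.88, 9.35 and 9.26 in Rb1+/+ cultures 1, 2 and 3 and 9.89, 9.98 and 9.94 in the Rb1L/L cultures. The groups were far apart, and the lowest Rb1L/L value stood 0.54 above the highest Rb1+/+ value. The log2 fold change was 0.77 ± 0.12 (SE, adjusted p = 0.00744), and 0.63 (adjusted p = 0.0131) without Rb1+/+ culture 1.

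Cenph, a subunit of the constitutive network that helps to bring in new CENP-A, was at log2 7.21, 7.59 and 7.47 in Rb1+/+ and at 8.04, 8.12 and 8.04 in Rb1L/L cultures. It rose 1.56-fold (log2 fold change 0.64 ± 0.09 SE, adjusted p = 0.00699), and without Rb1+/+ culture 1 the value was 0.54 (adjusted p = 0.0163). Cenpo, of the network's peripheral CENP-O subcomplex, measured 7.63, 7.74 and 7.60 against 7.84, 8.01 and 7.94. The groups lay close to each other, 0.09 apart at their nearest, with a log2 fold change of 0.27 ± 0.07 SE (adjusted p = 0.0394). This call was lost in 5 of the 6 fits without 1 array (adjusted p up to 0.129), the exception being the fit without Rb1+/+ culture 2 (0.0429).

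Partners of CENP-H in its subcomplex did not pass in the main analysis. Cenpi, which is X-linked, had a log2 fold change of 0.30 (95% interval 0.04 to 0.57). It measured 6.75, 7.15 and 7.23 in Rb1+/+ and 7.32, 7.34 and 7.37 in Rb1L/L cultures. The male-pattern culture was the lowest in each genotype, narrowly so in Rb1L/L. Rb1+/+ culture 1 was the lowest for 28 of the 37 members, and a part of sex in this was not tested. Cenpk had the largest p of the group, at 6.25, 6.66 and 6.69 in Rb1+/+ and 6.63, 6.63 and 6.61 in Rb1L/L cultures. Its Rb1L/L values lay within the Rb1+/+ range, and the difference of 0.09 (interval -0.17 to 0.35) became -0.05 without Rb1+/+ culture 1.

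Cenpm, also of the CENP-H subcomplex, missed the threshold at 0.27 ± 0.08 SE (adjusted p = 0.063) but not with the replicate block (0.0375). Its groups did not overlap. Cenpl had 0.23 (interval -0.01 to 0.47). Among the partners of Cenpo, Cenpp measured 0.12 and Cenpq 0.11. Cenpt, which links the network to the outer layer, had 0.10 (interval -0.05 to 0.24), Cenpn, which recognises the CENP-A nucleosome, 0.08 (-0.08 to 0.24), and Cenpb, which binds a motif in centromeric satellite DNA, 0.11 (-0.08 to 0.30). All 3 intervals include 0. The difference of Cenpq also turned negative without Rb1+/+ culture 1 (-0.06).

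In the outer kinetochore group, 6 of 14 genes rose (all tested genes, 7.11%) and none fell, with a median of 0.239. The Ndc80 complex, the main microtubule coupler, had 3 of 4 subunits among them. Spc24 measured log2 7.0, 7.15 and 6.92 in Rb1+/+ and 7.32, 7.38 and 7.50 in Rb1L/L cultures. All Rb1L/L values were higher, for a log2 fold change of 0.38 ± 0.08 SE (adjusted p = 0.0213). Spc25 was at 7.40, 7.90 and 7.88 against 8.23, 8.42 and 8.12, with Rb1+/+ culture 1 well below its group. The fold change of Spc25 was 0.53 ± 0.14 SE (adjusted p = 0.0433), and 0.37 (0.0707) without that culture.

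Ndc80 itself rose by 0.35 ± 0.09 SE on the log2 scale (adjusted p = 0.0355; 0.0722 without Rb1+/+ culture 1). Nuf2, its direct partner, measured 8.15, 8.54 and 8.09 in Rb1+/+ and 8.71, 8.85 and 8.56 in Rb1L/L cultures. The highest Rb1+/+ and the lowest Rb1L/L value nearly met, and the change of 0.45 ± 0.13 SE missed the threshold (adjusted p = 0.0554). It passed with the replicate block (0.0104) and without Rb1+/+ culture 2 (0.0154). The differences of the 4 subunits thus ranged from 0.35 to 0.53.

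The Ska complex tracks microtubule ends beside Ndc80. Ska2 had the smallest p of the group: 9.67, 9.96 and 9.79 in Rb1+/+ against 10.19, 10.21 and 10.20 in Rb1L/L cultures. The Rb1L/L cultures hardly differed among themselves, and the log2 fold change was 0.39 ± 0.08 SE (adjusted p = 0.0189). Ska3, the gene nearest the threshold on its inner side, was at 8.21, 8.48 and 8.53 against 8.76, 8.97 and 8.68, a change of 0.39 ± 0.10 SE (adjusted p = 0.0453). It did not pass in any of the 6 fits without 1 array (adjusted p 0.0548 to 0.131). Ska1 had 0.19 (interval 0.04 to 0.34; adjusted p = 0.105).

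In the Mis12 complex, which joins inner and outer layers, Dsn1 measured 7.54, 7.60 and 7.55 in Rb1+/+ and 7.85, 7.81 and 7.75 in Rb1L/L cultures. Its spread was small in both groups, and it rose by 0.24 ± 0.06 SE (adjusted p = 0.0316). That call held in 1 of 6 fits without 1 array (adjusted p 0.0491 to 0.114). Mis12 had 0.24 ± 0.08 SE (adjusted p = 0.103, or 0.0485 without Rb1+/+ culture 3) and Nsl1 0.20 ± 0.09 SE (adjusted p = 0.169).

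Cenpe, Cenpf, Zwilch and Zwint did not pass. Cenpe, a kinesin that carries chromosomes to the spindle equator, had the largest p of the 37: 8.30, 8.84 and 8.88 in Rb1+/+ against 8.70, 8.73 and 8.82 in Rb1L/L cultures. Apart from Rb1+/+ culture 1 its values lay close together, and the difference of 0.08 (interval -0.25 to 0.40) was -0.11 without that culture. Cenpf, of the fibrous corona, had 0.17 (-0.07 to 0.40) and Zwilch, of the RZZ complex that recruits dynein, 0.10 (-0.12 to 0.32). Zwint, which binds the KNL1 scaffold, was at 11.41, 11.42 and 11.45 in Rb1+/+ and 11.33, 11.29 and 11.26 in Rb1L/L cultures. It alone of the 37 was lower in Rb1L/L, by a log2 fold change of -0.13 ± 0.05 SE in groups that did not overlap (adjusted p = 0.141).

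**Figure D4:**
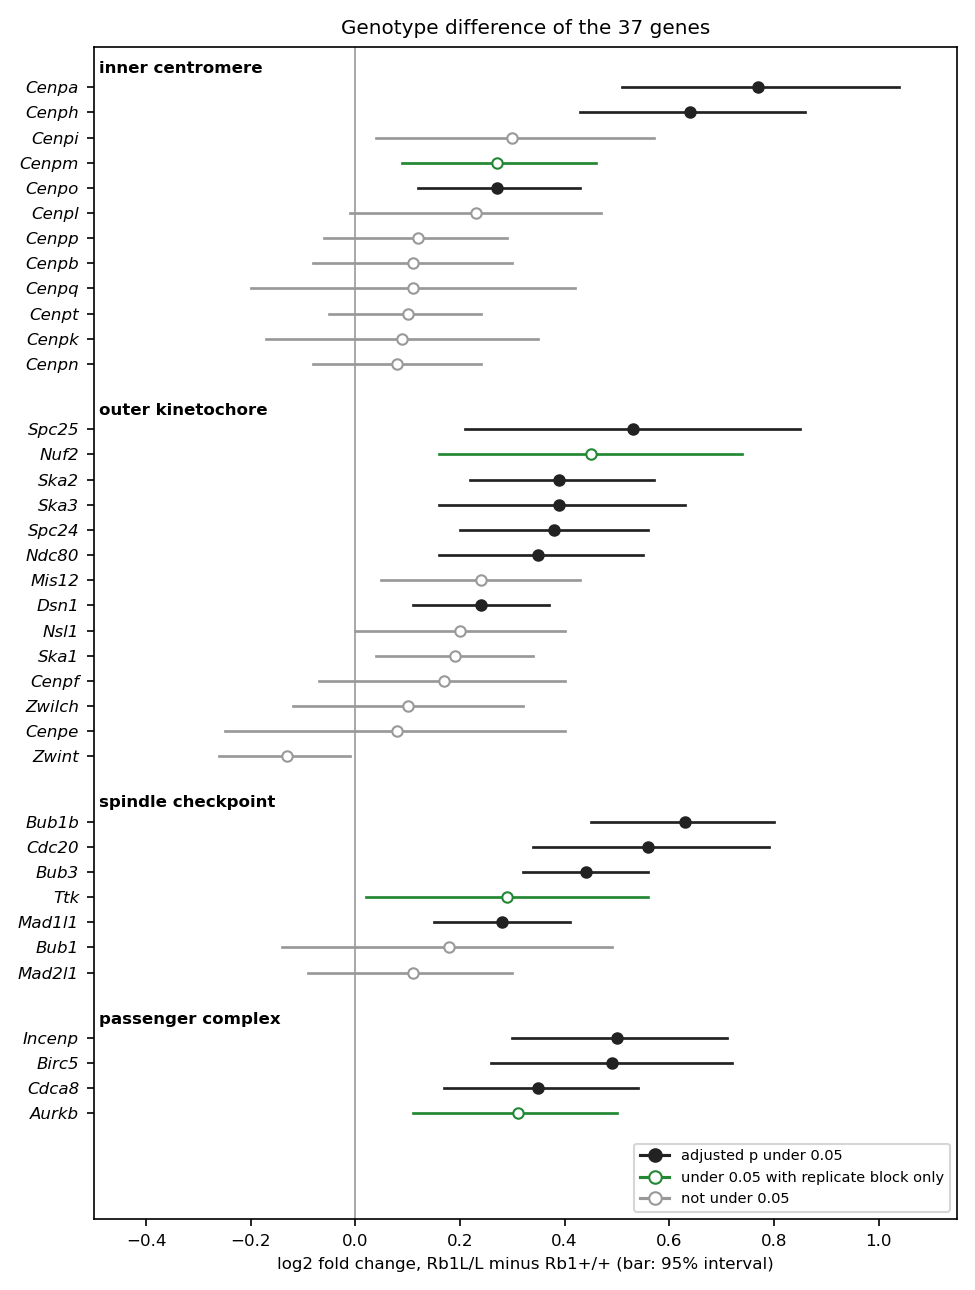
Log2 fold change of each gene, Rb1L/L minus Rb1+/+ (horizontal axis), with its 95% interval from limma, by role group. Filled black points passed the adjusted threshold of 0.05 (16 genes), open green points passed with the replicate block only (4 genes) and open grey points passed neither; Cenpa is the highest at 0.77 and Zwint the lowest at -0.13.

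Of the 7 checkpoint genes, 4 rose (all tested genes, 7.11%) and none fell, with a median of 0.292. Bub1b encodes BubR1, part of the inhibitor that holds the APC/C in check. It measured log2 8.54, 8.80 and 8.62 in Rb1+/+ and 9.24, 9.35 and 9.26 in Rb1L/L cultures. The groups were 0.44 apart at their nearest, and Bub1b rose by 0.63 ± 0.08 SE (adjusted p = 0.00427). Bub3, its partner at the kinetochore, was at 10.43, 10.45 and 10.43 against 10.88, 10.85 and 10.89, with almost no spread inside either group. The rise of 0.44 ± 0.05 SE had the smallest p of the 37 (adjusted p = 0.00378) and was 0.43 without Rb1+/+ culture 1.

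Cdc20, the APC/C activator on which the checkpoint acts, measured 8.95, 9.29 and 9.10 in Rb1+/+ and 9.58, 9.65 and 9.80 in Rb1L/L cultures. All Rb1L/L values were higher, for a 1.48-fold rise (0.56 ± 0.10 SE, adjusted p = 0.0125). Mad1l1, which anchors MAD2 at kinetochores, rose by 0.28 ± 0.06 SE (adjusted p = 0.0198); it missed the threshold without Rb1+/+ culture 1 (0.054), Rb1L/L culture 2 (0.0693) or Rb1L/L culture 3 (0.0545).

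Mad2l1, the checkpoint protein that MAD1 converts to its active form, had the largest p of the group, at 10.61, 10.92 and 10.79 in Rb1+/+ and 10.90, 10.92 and 10.81 in Rb1L/L cultures. These groups overlapped, with a difference of 0.11 (interval -0.09 to 0.30). Bub1, a kinase at the head of checkpoint assembly, had 0.18 (-0.14 to 0.49), which vanished without Rb1+/+ culture 1 (-0.0008). Ttk, the MPS1 kinase that starts the signal, had 0.29 ± 0.12 SE (adjusted p = 0.147, or 0.0434 with the replicate block, where it passed).

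In the passenger complex, 3 of 4 genes rose (all tested genes, 7.11%) and none fell, with a median of 0.422. None of the 4 overlapped between genotypes, with the Rb1L/L values higher, which held for 16.2% of tested genes. Incenp, the scaffold, measured log2 8.49, 8.42 and 8.33 in Rb1+/+ and 8.92, 9.08 and 8.75 in Rb1L/L cultures. Here Rb1+/+ culture 1 was the highest of its group, unlike in most members. The rise was 0.50 ± 0.09 SE (adjusted p = 0.0139) and was lost only without Rb1L/L culture 1 (0.051) among the fits without 1 array. Birc5, which encodes survivin, was at 7.89, 8.23 and 8.18 against 8.52, 8.72 and 8.53, a rise of 0.49 ± 0.10 SE (adjusted p = 0.0206; 0.0531 and 0.0694 without Rb1L/L cultures 1 and 2).

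Cdca8, which encodes borealin, rose by 0.35 ± 0.08 SE (adjusted p = 0.0278; 0.0796 without Rb1+/+ culture 1). Aurkb, the Aurora B kinase itself, was the member nearest the threshold on the outer side. It measured 9.77, 9.99 and 10.06 in Rb1+/+ and 10.17, 10.29 and 10.29 in Rb1L/L cultures. Its groups did not overlap, and the difference of 0.31 ± 0.08 SE missed the threshold by little (adjusted p = 0.0504); the replicate block brought it to 0.0234.

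Of the 16 genes that rose, 5 (Cenpa, Cenph, Bub1b, Bub3 and Cdc20) did so in all 6 fits without 1 array. Incenp passed in 5 of them, Birc5 in 4, Ska2 and Mad1l1 in 3, Spc24 and Cdca8 in 2, Cenpo, Ndc80, Spc25 and Dsn1 in 1, and Ska3 in none. Most calls (10) were lost without Rb1L/L culture 2, and 8 each without Rb1+/+ culture 1 or Rb1L/L culture 1. The Rb1+/+ cultures had the larger SD for 26 of the 37 members (70.3%), as for 56.3% of tested genes.

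Other genes of the pathway came from 4 lists of 45 genes, of which 42 were tested; Itgb3bp lay below the filter. In these lists 11 rose and none fell, with a median log2 fold change of 0.20. Of all tested genes, 7.11% rose and 5.07% fell. At an unadjusted p under 0.05, 20 were higher and 2 lower, beside 2225 and 2216 of all 15452 tested genes. Of 7 centromere assembly genes 1 rose, Oip5 (0.36 ± 0.07 SE, adjusted p = 0.0199), a subunit of the Mis18 complex that prepares centromeres for CENP-A. Its call was lost in 5 of 6 fits without 1 array, Rb1+/+ culture 1 included (0.0559). Cenpx had -0.24 ± 0.08 SE (adjusted p = 0.083; 0.04 with the replicate block) and Mis18a 0.31 ± 0.10 SE (adjusted p = 0.0853).

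Of 10 kinetochore and microtubule genes, 3 rose. Kif2c, a microtubule depolymerase that corrects attachments, rose by 0.64 ± 0.08 SE and Kntc1, which encodes the ROD subunit of the RZZ complex, by 0.52 ± 0.09 SE (adjusted p = 0.00476 and 0.0109). Pmf1, the remaining subunit of the Mis12 complex, rose by 0.35 ± 0.08 SE (adjusted p = 0.028; lost in 5 of 6 fits without 1 array, with 0.0737 without Rb1+/+ culture 1), while the scaffold gene Knl1, named after its value was seen, had 0.11 ± 0.14 SE. Among 6 checkpoint regulators, Mad2l1bp, whose product p31comet switches the checkpoint off, rose by 0.34 ± 0.07 SE and the kinase gene Plk1 by 0.38 ± 0.09 SE (adjusted p = 0.0217 and 0.0276). In the fits without 1 array, Mad2l1bp lost its call in 3 of 6 (adjusted p up to 0.0752) and Plk1 in 5 of 6 (up to 0.0865; 0.0535 without Rb1+/+ culture 1). Sgo2a, a guardian of centromeric cohesion, had -0.21 ± 0.10 SE (adjusted p = 0.201) and passed, lower, without Rb1+/+ culture 1 (0.0396).

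The APC/C and separase list held 5 of 19 genes that rose, led by the subunit genes Anapc5 (0.54 ± 0.07 SE), Cdc26 (0.47 ± 0.06) and Anapc13 (0.54 ± 0.08; adjusted p = 0.00458 to 0.00699). Pttg1, which encodes the separase inhibitor securin, rose by 0.58 ± 0.10 SE (adjusted p = 0.0122). With the replicate block, 13 of the 42 rose (all tested genes, 7.99%) and 1, Cenpx, fell. Without Rb1+/+ culture 1, 8 rose (all tested genes, 3.5%) and 1, Sgo2a, fell.

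**Figure D5:**
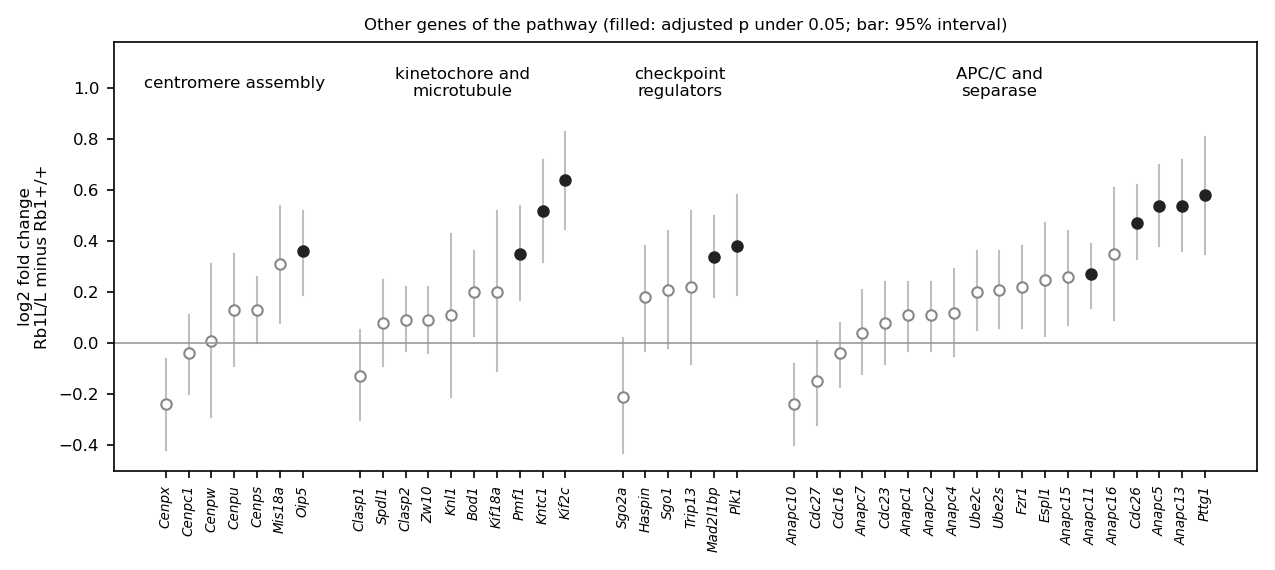
Log2 fold change, Rb1L/L minus Rb1+/+ (vertical axis), of the 42 tested genes of 4 further pathway lists, with 95% intervals from limma. Filled points passed the adjusted threshold of 0.05 (11 genes, all higher); Kif2c is the highest at 0.64.

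Because the series is about divergently paired genes, the 31 members with a promoter window were searched for a gene on the other strand that starts head to head within 1000 bases. This gave 9 pairs, and 8 partners were tested. Mad1l1 and Nudt1, which encodes an enzyme that removes oxidised nucleotides, start 70 bases apart and both rose. Nudt1 measured log2 6.76, 6.91 and 6.78 in Rb1+/+ and 7.25, 7.33 and 7.28 in Rb1L/L cultures, a rise of 0.47 ± 0.06 SE (adjusted p = 0.00481) that held in all 6 fits without 1 array. Its groups were well apart. The call of Mad1l1 held in 3 of these 6 fits.

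The other 7 partners did not pass. Of all tested genes, 7.11% rose and 12.2% changed either way, so 1 risen partner of 8 is no sign of a rule for such pairs. Beside the risen members Ska3, Cdca8 and Ska2, the partners Mrpl57 (76 bases away), 9930104L06Rik (131) and Prr11 (547) had log2 fold changes of -0.01 ± 0.05 SE, 0.13 ± 0.06 SE and -0.02 ± 0.09 SE. Beside members that did not pass, Ppwd1 (next to Cenpk) had 0.16, Cmc2 (Cenpn) -0.16, Derl2 (Mis12) -0.18 and Nol8 (Cenpp) -0.15. In 3 of the 8 tested pairs both genes had positive fold changes. The member was positive in all 8, so this count depends on the partners alone. Among all 15452 tested genes, 6741 had a positive fold change.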

How the data were processed

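Affymetrix mouse gene arrays of 3 Rb1+/+ and 3 Rb1L/L cultures were analysed. The authors deposited log2 values; RMA and Partek are named, per the submitters' processing notes, without versions, settings or build. The deposited array medians ran from 6.393 to 6.449. RMA includes a normalization between arrays, which can hide a shift common to most genes, and it shrinks the folds of dim ones. An array has no read depth, and the number of arrays limits the precision.

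Of 35556 clusters, 21789 had 1 symbol in the platform annotation, 1621 had several and 12146 had none there; 21766 of those with 1 symbol matched the reference gene table (GRCm38.p6) and stood for 19919 genes, with the brightest cluster used for the 997 with several. A gene was tested if its mean exceeded log2 5.08, a floor set at percentile 90 of 1196 odorant and vomeronasal receptor genes, with limma 3.58.1 in R 4.3.3 (lmFit, eBayes, no block, two-sided), with p-values Benjamini-Hochberg adjusted over all 15452 genes at a threshold of 0.05. SEs are moderated. The labels number the cultures but do not say that they came from separate embryos, so p-values measure the spread between these samples.

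Members, role groups and lists were chosen with earlier results of these data known. All 37 members were named; values in every culture were given for the 3 called members of smallest p in a role group (2 in the passenger complex), the member of largest p, the 2 nearest the threshold on each side and, after their values were seen, Cenpi, Zwint and Nudt1. Other lists were named by up to 3 genes of smallest p, and Pttg1 and Sgo2a were added after their values were seen.

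Replicate numbers were taken to pair the samples: the design speaks of pairs, and arrays with the same number deviated together (r = 0.301, 0.243 and 0.299 for pairs 1, 2 and 3). Arrays with different numbers had r from -0.258 to -0.046. The deviations within a group cancel out for each gene, so these negative values follow in part from the positive ones and are no separate support. Whether same-numbered cultures are related is not stated. The procedure was tested on simulated data for this comparison with 15452 genes. It found 76 of 100 changes of 1.5-fold and 31 of 100 of 1.25-fold, and made 4 false calls. Noise was drawn independently for each gene and array, without culture shifts or pairs, and far fewer genes were changed than were called here. These counts therefore do not give the power or the false calls of the real comparison. Many members changed by less than 1.5-fold. Alternatives were leaving out arrays, the block, scaling, filters, cluster choice, moderation and array weights.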

Additional observations from a re-analysis of the deposited data

How the results depend on the processing

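In the fits without 1 array, 6 to 14 members rose and 0 fell; by role, 2 to 3 inner centromere, 0 to 4 outer kinetochore, 3 to 4 checkpoint and 1 to 3 passenger genes rose. Of the other pathway genes 6 to 12 rose and 0 to 1 fell, and 622 to 1440 genes changed in all. Without both arrays numbered 1, 2 and 3 (2 against 2), 1, 7 and 3 members rose. Of all tested genes, 92, 468 and 460 changed, of which 87, 321 and 350 rose. By role the risen members were 1, 2 and 0 inner centromere, 0, 2 and 0 outer kinetochore, 0, 3 and 2 checkpoint and 0, 0 and 1 passenger genes. Of the other pathway genes, 0, 6 and 5 rose. These fits have fewer arrays; why the counts differ between numbers was not tested.

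The other settings gave 13 to 20 members higher and 0 lower: 20 with the replicate block, 19 after median centring over all clusters, 18 with trended robust variances, 17 with the stricter filter (log2 5.58), 16 with the mean of clusters, 15 with quantile normalization, no filter or array weights, and 13 after median centring over the tested genes, a setting chosen after seeing the data. Over all genes, 1098 rose in the main analysis, 1235 with the block, 1259 after centring over all clusters and 1244 with trended robust variances. The stricter filter gave 1156, the mean of clusters 1094, quantile normalization 1005, no filter 955 and array weights 1162. Centring over the tested genes gave 881. The filters and the mean of clusters also change which genes are tested. The block ended no call among the 16. Of the other pathway genes, 1 fell with the block, 1 with array weights and 2 after centring over the tested genes (0 in the main analysis). Over all tested genes, 58.4% of calls were higher, against 44.7% after that centring.

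Signs turned for genes that had not passed: over the fits without 1 array the log2 fold change ran from -0.0531 to 0.1689 for Cenpk, -0.0609 to 0.2371 for Cenpq, -0.1104 to 0.1789 for Cenpe and -0.0008 to 0.2955 for Bub1, each lowest without Rb1+/+ replicate 1 and highest without Rb1+/+ replicate 3. Without both arrays numbered 1, Cenpk was at -0.0577, Cenpq at -0.0381 and Cenpe at -0.0832. Of 900 comparisons of single genes with an alternative, 752 kept direction and side of the threshold, 123 lost it, 18 gained it and 7 turned.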
